A study of Mus musculus with 4 samples.

Results

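The genes described here encode 10 growth factor and cytokine receptor chains of early T lineage progenitors (ETP), the least mature T cell precursors of the mouse thymus. They were chosen by symbol as receptors for stem cell factor, Flt3 ligand, IL-7, IL-2, IL-15 and related cytokines. No measured value entered the rule, but the choice was made with earlier results of these data known. They are 10 of the 23361 genes in the deposited table. They are *Kit*, *Flt3*, *Il7r*, *Il2rg*, *Il2ra*, *Il2rb*, *Il15ra*, *Il4ra*, *Il6st* and *Il18r1*.

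ETP were sorted from the thymus of female C57BL6 mice, and their RNA was sequenced in 2 libraries from young mice aged 4 to 6 weeks and 2 from old mice aged 72 weeks. All mice were untreated animals of the same strain, and the sort gate was Lin- CD44+ CD25- CD117+. The table calls the old condition 20m where the labels give weeks, and within an age its replicates are numbered 1 and 2 here without a label that ties each to a sample. The labels do not say that the libraries came from separate animals or pools, so a p-value here reflects how far the libraries of an age lie apart, a spread that may be technical.

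KIT and FLT3 are receptor tyrosine kinases that carry the signals of stem cell factor and Flt3 ligand in haematopoietic progenitors. The IL-7 receptor alpha chain (*Il7r*) and the IL-4 receptor alpha chain (*Il4ra*) each pair with the common gamma chain (*Il2rg*), and IL-2 and IL-15 share the beta chain (*Il2rb*) together with the gamma chain and take a private alpha chain each (*Il2ra* and *Il15ra*). GP130 (*Il6st*) is the shared signal chain of the IL-6 family, and *Il18r1* encodes the binding chain of the IL-18 receptor. In the thymus, KIT and IL-7 receptor signals are known to sustain early progenitors, CD25 (*Il2ra*) appears when ETP pass to the DN2 stage, and the IL-2 and IL-15 receptor beta chain is best known from NK cells and activated or memory T cells.

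The 10 genes are not of a single protein family, and the coding sequence shows it. Receptors of the class I cytokine family carry a short motif next to the membrane, the WSXWS box. It was searched in the longest GENCODE M21 coding sequence of each gene (build GRCm38) and was found in 5 of 10 genes. The stretches that encode it are shown because they group the beta and gamma chains of the IL-2 and IL-15 receptor with *Il7r*, *Il4ra* and *Il6st*, and not with the alpha chains. Capitals mark the box, with 6 coding bases on each side, read on the coding strand:
*Il7r*, codon 218, exon 5, chr15:9511145-9511171, minus strand: ggcttcTGGAGCGAGTGGAGTccaagt
*Il2rg*, codon 238, exon 5, chrX:101266209-101266235, minus strand: caacagTGGAGTAAATGGAGCcagcct
*Il2rb*, codon 221, exon 7, chr15:78485757-78485783, minus strand: gggaccTGGAGTCCCTGGAGCcagccc
*Il4ra*, codon 213, exon 7, chr7:125571548-125571574, plus strand: ggcaccTGGAGTGAGTGGAGTcctagc
*Il6st*, codon 308, exon 8, chr13:112490591-112490617, plus strand: ggctacTGGAGTGACTGGAGTgaggag

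No box was found in *Kit*, *Flt3*, *Il2ra*, *Il15ra* or *Il18r1*. *Il2ra* and *Il15ra*, the alpha chains for IL-2 and for IL-15, are neighbours on chromosome 2 at chr2:11642807-11693193 and chr2:11705290-11734317. *Il2rb* lies at chr15:78479256-78495271 and *Il7r* at chr15:9505788-9530176. *Il2rg* shares exonic positions with *Gm20489* on the same strand and *Il4ra* overlaps *Gm44876* on the other strand, so reads of these pairs may not be told apart, while the other 8 genes share no exonic position with another gene.

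Depth was 16658864 fragments for young replicate 1, 6414915 for young replicate 2, 11816478 for old replicate 1 and 4839341 for old replicate 2. Replicate 2 was the shallower library at both ages. The 10 genes together took 0.175%, 0.213%, 0.191% and 0.201% of these fragments, and each gene had at least 42 fragments in every library. All 10 passed the filter on low values (at least 1 FPKM, the fragments scaled by gene length and depth, in at least 2 libraries), as did 10080 genes in all. Levels are given as normalized CPM, which are fragments scaled to a common library size by the TMM method of edgeR, always in the order young 1, young 2, old 1, old 2. Levels of different genes are compared as TPM, which are the FPKM rescaled to the same sum in every library and so account for gene length.

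*Kit* was the most abundant of the 10 by mean TPM, and *Il15ra* the least. Over the 4 libraries *Kit* stood at 353 ± 89.8 TPM (SD, n = 4), *Il2rg* at 321 ± 59.0, *Flt3* at 151 ± 37.5 and *Il6st* at 86.7 ± 27.1. Below them came *Il4ra* at 36.0 ± 9.07, *Il7r* at 34.7 ± 24.7, *Il2rb* at 30.8 ± 30.8, *Il18r1* at 27.0 ± 14.9, *Il2ra* at 13.4 ± 4.51 and *Il15ra* at 12.2 ± 2.12. Among neighbours in this order, *Il2rg* and *Flt3* did not overlap over the libraries, nor did *Il6st* and *Il4ra*, while each other pair of neighbours overlapped. *Il6st* was not set apart from all genes below it. Its lowest value, 58.0 TPM, was under the highest of *Il7r* (58.5) and of *Il2rb* (70.6). *Kit* was above *Il2rg* in 3 of 4 libraries, the exception being young replicate 1, and *Flt3* was above *Il6st* in all 4. Among all genes of the table, 98.7% had a lower mean TPM than *Kit* and 64.6% a lower one than *Il15ra*.

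**Figure D1:**
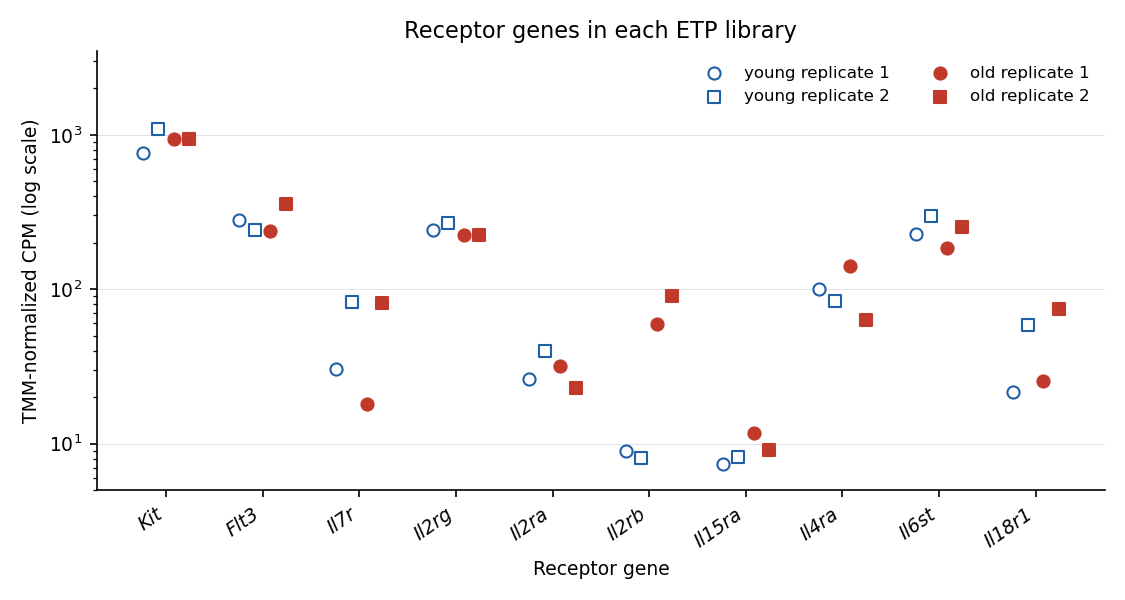
Normalized CPM of each of the 10 receptor genes in each of the 4 libraries on a log axis, with young and old libraries in separate colours. *Kit* sits at the top in all libraries, and *Il2rb* moves from 8.95 and 8.01 in young to 59.6 and 90.0 in old libraries.

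The comparison of old with young ETP asked which transcripts differ with age. In edgeR's quasi-likelihood test with Benjamini-Hochberg adjustment over all 10080 genes, 0 of the 10 receptor genes passed an adjusted p of 0.05, against a background of 0% of all genes in either direction. At an unadjusted p under 0.05, 1 of 10 was higher in old (*Il2rb*; background 4.65%) and 0 lower (background 0.913%). DESeq2, a test that estimates the spread of each gene in another way, called the same gene and no other of the 10, against 2.08% of all genes called higher in old and 0.149% called lower. At an unadjusted p under 0.05, DESeq2 had 4.99% of all genes higher and 0.972% lower in old. The log2 difference from young to old was above 0 for 6 of 10 genes (background 46.6%), of which *Kit*, *Flt3*, *Il4ra* and *Il18r1* turned below 0 on the log2(FPKM + 1) scale. The main differences had a median of 0.09 over the 10, of 0.02 without *Il2rb* and of -0.03 over all tested genes.

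The receptors for stem cell factor and Flt3 ligand overlapped between the ages. *Kit* stood at 764 and 1096 normalized CPM in young and 936 and 945 in old libraries. Both old values lay between the young ones, and the log2 difference was 0.02 ± 0.31 (SE, n = 2 per age). *Flt3*, which is expressed by multipotent progenitors and by dendritic cell precursors, stood at 279 and 243 in young and 239 and 358 in old libraries. These ranges overlapped as well, with a log2 difference of 0.19 ± 0.31. *Kit* encodes CD117 and was part of the sort gate, so its level was set in part by the sort. The fragments of *Flt3* per fragment of *Kit* came to 0.365 and 0.222 in young libraries, against 0.255 and 0.379 in old ones, again with overlap (exact permutation test, two-sided, p = 0.667).

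*Il7r*, the chain that binds IL-7, differed more between libraries of an age than between the ages. Its level was 30.5 and 82.8 normalized CPM in young and 18.1 and 81.7 in old libraries. Replicate 2 was 2.72 times replicate 1 in young and 4.51 times in old. The log2 difference by age was -0.19 ± 0.80, the least precise of the 10. Omitting old replicate 2 gave -1.65 and omitting young replicate 1 gave -0.74, while omitting young replicate 2 gave 0.70 and omitting old replicate 1 gave 0.59, so 2 of the 4 omissions turned its direction.

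*Il2rg*, the common gamma chain, varied least over the 4 libraries among the cytokine receptor chains. It stood at 243 and 268 in young and at 225 in both old libraries, with a log2 difference of -0.19 ± 0.25. Both old values were below both young values, which held for 15.5% of all tested genes, and the difference did not pass the test even before adjustment. *Il4ra*, the IL-4 and IL-13 receptor chain, stood at 34.6 and 36.4 TPM in young and at 47.6 and 25.5 TPM in old libraries. The old libraries lay on either side of the young ones, 2.21 times apart in normalized CPM, and the log2 difference was 0.15 ± 0.42. Leaving out old replicate 1 gave -0.50 and leaving out old replicate 2 gave 0.58.

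Among the chains that bind IL-2 and IL-15, the ages lay farthest apart for the beta chain. *Il2rb*, the shared beta chain, stood at 8.95 and 8.01 normalized CPM in young and at 59.6 and 90.0 in old libraries, from 153, 50, 717 and 413 fragments. Every old library was above every young library. The log2 difference was 3.13 ± 0.35, and by unadjusted p *Il2rb* had rank 4 of the 10080 genes. The adjusted p was 0.325 in edgeR's quasi-likelihood test and the adjusted p was 1.01e-09 in DESeq2. Differences of at least 3 on the log2 scale were found for 1.2% of tested genes. Over 13 alternative analyses the log2 difference ranged from 2.12 to 3.44 and the adjusted p from 1.37e-10 to 0.401. Leaving out old replicate 1 brought *Il2rb* under the threshold in edgeR (adjusted p = 0.00553), as did testing without a filter on low values (adjusted p = 1.37e-10).

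By TPM *Il2rb* had rank 10 of the 10 genes in both young libraries, rank 6 in old replicate 1 and rank 5 in old replicate 2. In these bulk libraries, more cells with the transcript and more transcript per cell cannot be told apart.

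The alpha chains were low at both ages. *Il2ra*, which encodes CD25, stood at 26.3 and 39.9 in young and 31.8 and 22.9 in old libraries, with a log2 difference of -0.26 ± 0.37. The sort took CD25- cells, so this level was also set in part by the gate, and the young and old ranges overlapped. *Il15ra*, which binds IL-15 and presents it to neighbouring cells, stood at 7.37 and 8.17 in young and 11.7 and 9.15 in old libraries, a log2 difference of 0.43 ± 0.39 that did not pass the test before adjustment. Both old values of *Il15ra* were above both young values. With *Il2rb* this made 2 of 10 genes without overlap and higher in old, where 16.1% of all tested genes had that order.

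**Figure D2:**
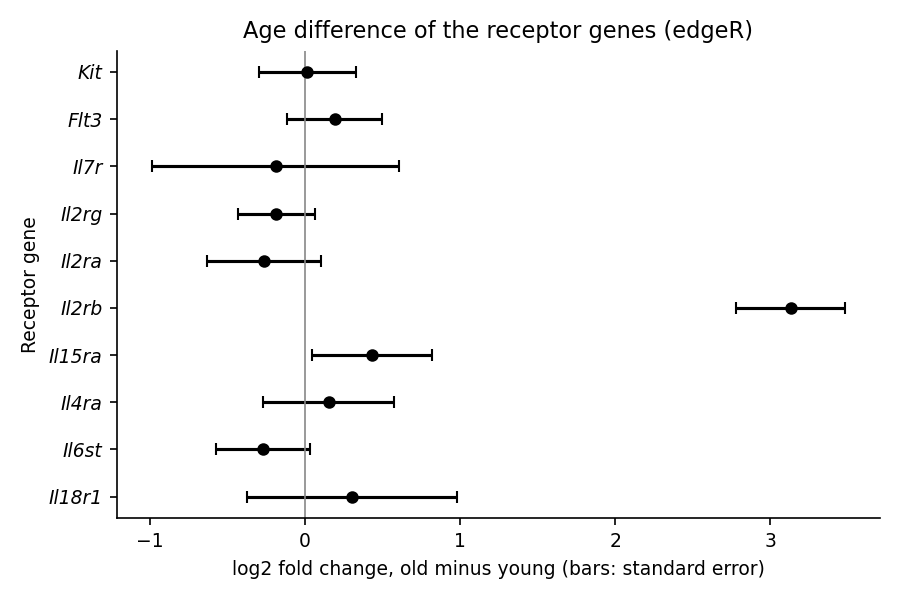
Log2 difference from young to old with its standard error for each of the 10 receptor genes (edgeR, 2 libraries per age), with a line at no difference. *Il2rb* lies at 3.13 and the other 9 between -0.27 and 0.43.

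Because fragment counts of 2 genes within a library share its depth, 6 pairs of receptor genes were also set against each other as ratios. There were 0.0368 and 0.0298 fragments of *Il2rb* per fragment of *Il2rg* in young and 0.265 and 0.400 in old libraries, a log2 difference of 3.30. For *Il2rb* to *Il2ra* the ratio was 0.341 and 0.201 in young and 1.87 and 3.93 in old libraries. For *Il2rb* to *Il15ra* it was 1.21 and 0.980 in young and 5.09 and 9.83 in old libraries. The beta chain was thus below its IL-2 alpha chain in fragments in both young libraries and above it in both old ones. These 3 ratios, which share *Il2rb*, did not overlap between the ages, and neither did *Il18r1* to *Il7r*. Each had a p of 0.333 in the exact permutation test (two-sided), which is the smallest that 2 libraries against 2 allow, so no pair could pass a threshold and adjustment over the 6 pairs was of no use. Per length, *Il2rg* was above *Il2rb* in every library, by 48.7 and 59.3 times in young and by 6.74 and 4.42 times in old.

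**Figure D3:**
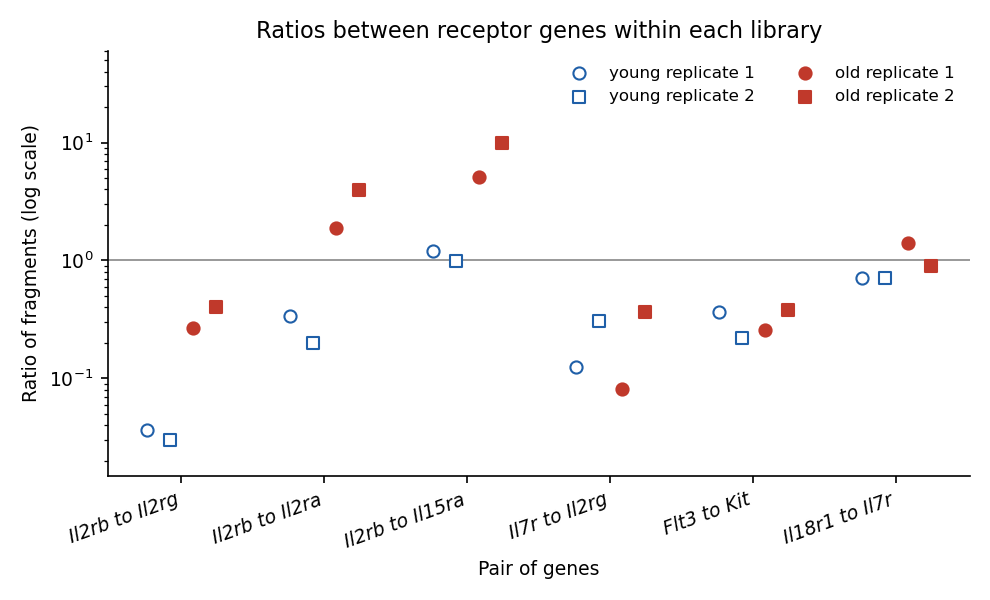
Ratio of fragments, on a log axis, for the 6 pairs of receptor genes in each library, young and old. The 3 pairs that share *Il2rb* are separated by age, as is *Il18r1* to *Il7r*, while *Il7r* to *Il2rg* and *Flt3* to *Kit* overlap.

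GP130 and the IL-18 receptor chain followed other patterns. *Il6st* stood at 229 and 299 in young and 184 and 253 in old libraries, a log2 difference of -0.27 ± 0.30, with overlapping ranges. *Il18r1* stood at 21.6 and 58.8 in young and 25.4 and 73.9 in old libraries, a log2 difference of 0.30 ± 0.67. Like *Il7r*, it was higher in replicate 2 at both ages, by 2.72 and 2.90 times. The age difference of *Il18r1* was 1.19 with young replicate 2 omitted and 0.94 with old replicate 1 omitted. It was -0.25 with young replicate 1 omitted and -0.66 with old replicate 2 omitted.

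*Il7r* and *Il18r1* were the only 2 of the 10 genes for which replicate 2 was at least 2 times replicate 1 at both ages, where 4.28% of all tested genes had that pattern. The reverse, replicate 1 at least 2 times replicate 2 at both ages, was seen in none of the 10 and in 2.42% of all tested genes. The ratio of their fragments, *Il18r1* to *Il7r*, was 0.708 and 0.710 in young libraries and 1.40 and 0.904 in old ones (p = 0.333, exact permutation test). The other 8 genes differed between replicates by less than 2 times in each age, save *Il4ra* in old libraries.

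**Figure D4:**
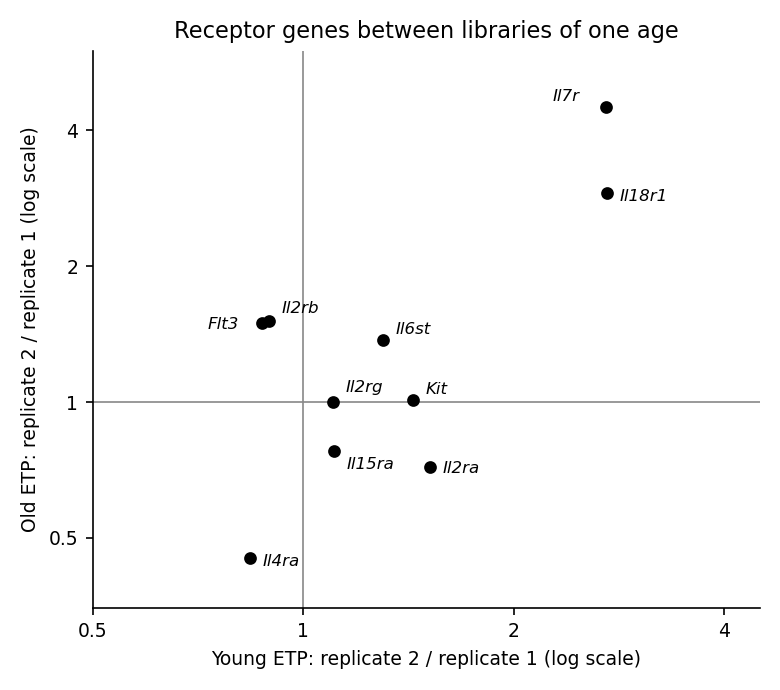
Level in replicate 2 divided by that in replicate 1, on a log axis, for each receptor gene in young and in old ETP. *Il7r* (2.72 and 4.51) and *Il18r1* (2.72 and 2.90) are above 2 in both ages.

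The length that the deposited FPKM imply for a gene, its scaled fragments per FPKM, is constant over the libraries where the same length was applied to each. For 8 of the 10 genes it varied by 1.01 to 1.03 times. For *Il18r1* it varied by 1.28 times, with values of 72.7, 85.8, 71.2 and 91.4, and was highest in the replicate 2 libraries. For *Il15ra* it varied by 1.16 times. A variation over 1.1 times was found in 4.78% of the 9539 genes with at least 20 fragments in each library, so the TPM of these 2 genes carry a length term that differs between libraries.

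The genes whose levels ran most like those of *Kit*, *Flt3*, *Il7r* and *Il2rb* were found by the root mean square difference of centred log2 CPM over the 4 libraries. For *Kit* they were *Nedd4l* (0.0179), *Polr3a* (0.0224) and *Acp2* (0.0292), and for *Flt3* they were *Apip* (0.0288), *Stard3* (0.0402) and *Hist1h2bb* (0.0408). For *Il7r* they were *Zfp229* (0.0548), *Zfml* (0.0718) and *Ifi203* (0.0734). For *Il2rb* the nearest genes were farther off, namely *Tigit* (0.159), *Cd207* (0.162) and *App* (0.170). Each of these was below 1 FPKM in both young libraries and passed the filter only through the old ones. Their likeness to a gene higher in old was thus set in part by the filter. *Tigit* had only 5, 1, 37 and 17 fragments. *Tigit* encodes an inhibitory receptor of T and NK cells, and *Cd207* encodes langerin of Langerhans cells and other dendritic cells.

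Markers of other cell types were summed in each library. The list for NK cells and ILC1 summed to 236, 241, 322 and 323 normalized CPM. Without *Nkg7*, its most abundant gene, the other 9 summed to 15.6, 27.1, 91.1 and 166. Of the 9, 4 passed the filter and were tested. Of these 4, 3 did not overlap and were higher in old, where 16.1% of all tested genes had that order. Among these 3, *Ncr1* and *Klrk1* were below 1 FPKM in both young libraries and passed the filter only through the old ones. The list was chosen with earlier results of these data known, so its count beside that share is no test. For the sum of the 9 and for *Il2rb*, old replicate 2 was above old replicate 1, while the young libraries were in opposite order. *Klrk1*, an activating NK receptor, stood at 2.11, 4.17, 17.2 and 71.5. *Nkg7* stood at 220, 214, 231 and 158, with overlap between the ages. Of other genes of the list, named after their values were seen, *Ncr1* had 1, 2, 101 and 33 fragments and *Eomes* 12, 3, 97 and 36. *Tbx21* had 0, 0, 23 and 15, and *Klrb1c*, a gene for NK-1.1, 12, 9, 64 and 66. *Eomes*, *Tbx21* and *Klrb1c* did not pass the filter. *Klrd1*, at 6.67, 15.7, 8.40 and 37.5 normalized CPM, and *Prf1*, at 0.936, 0.481, 2.08 and 0.871, overlapped between the ages. The sort removed cells stained for NK-1.1, CD11b and other lineage antigens, and the antibodies listed for it include none to CD11c. A count of 0 allows up to 3 fragments, or 0.176 normalized CPM in young replicate 1 and 0.481 in young replicate 2.

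Markers of conventional dendritic cells, without *Flt3*, summed to 254, 378, 1195 and 5200. Of these 8 genes 7 were tested, and 6 of the 7 did not overlap and were higher in old, against the same 16.1% of all tested genes. The 6 include genes that reached 1 FPKM only in old libraries. The list was also chosen with earlier results of these data known, so this count is no test of it. *Sirpa* had the opposite order, at 65.4, 62.95, 51.6 and 60.8, and *Cd209a*, which was not tested, overlapped. *H2-Ab1*, an MHC class II gene, stood at 142, 225, 866 and 3687, and *Xcr1*, a chemokine receptor of cross-presenting dendritic cells, at 10.2, 26.7, 96.4 and 618. This sum was 4.35 times higher in old replicate 2 than in old replicate 1, where *Il2rb* was 1.51 times and *Flt3* 1.5 times higher. The sums of NK cell markers without *Nkg7* and of conventional dendritic cell markers were thus higher in old, as *Il2rb* was. In these lists *Nkg7*, *Klrd1*, *Prf1* and *Cd209a* overlapped between the ages, and *Sirpa* was lower in old. The part of such cells in the level of *Il2rb* was not tested.

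Sums of the other lists lay closer together between the ages than those of NK cell markers without *Nkg7* and of conventional dendritic cell markers. Those of ILC2 and ILC3 and of monocytes and macrophages were higher in both old libraries. A sum follows its most abundant genes, and single members moved otherwise. Among mature T cell markers *Cd8a* stood at 1.64, 1.92, 7.15 and 22.7 and *Cd4* at 11.3, 10.4, 4.66 and 8.28. Of the B lineage, *Cd79a* had 4, 0, 14 and 20 fragments, *Ms4a1* 3, 0, 6 and 23, and *Ebf1* 12, 1, 0 and 0. Markers of DN2 and DN3 thymocytes summed to 598, 734, 599.6 and 528, and without *Il2ra* to 572, 694, 568 and 505. Members of that list differed in direction. *Rag2*, at 47.0, 96.75, 20.95 and 43.6, and *Rag1*, not tested, at 13.6, 18.6, 8.56 and 12.2, were lower in both old libraries. *Cd3e*, which encodes a CD3 chain, was higher in both, at 3.34, 2.88, 11.2 and 36.2. Its adjusted p was 0.379 in edgeR and its adjusted p was 0.00142 in DESeq2. The pre-T cell receptor gene *Ptcra* was at 0 in all libraries. Plasmacytoid dendritic cell markers summed to 276, 426, 208 and 332, and those of ILC2 and ILC3 to 28.7, 32.2, 38.4 and 36.6. B lineage markers summed to 33.9, 25.9, 27.5 and 39.7, and those of monocytes and macrophages to 253, 252, 301 and 283. Granulocyte and mast cell markers, cells of which mast cells also carry KIT, summed to 1890, 1253, 1315 and 618. Those of mature T cells summed to 58.6, 45.5, 55.0 and 60.6, of erythroid cells to 0.468, 0.320, 0.333 and 0.218, and of thymic stroma to 147, 178, 165 and 142, with *Foxn1* at 0. *Kit* and *Cd44* encode proteins that the sort selected for, so their presence is no separate check of the labelled cell type. *Cd44* stood at 507 ± 14.9 normalized CPM in young and 578 ± 82.8 in old libraries (SD, n = 2 per age).

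The neighbours of the 10 receptors in their pathways were read from 11 lists of 155 genes, of which 101 were tested. None of these 101 passed edgeR's adjusted p, while 10 were higher and 1 lower in old at an unadjusted p under 0.05, against backgrounds of 4.65% and 0.913% of all genes. DESeq2 called 2 of them, *Met* and *Gzmb*. The median log2 difference over the 101 was 0.11.

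The ligands were scarce in the sorted cells. Of 17 ligands of the 10 receptors 5 were tested, 0 passed at an unadjusted p and their median log2 difference was 0.35. *Il15*, the most abundant by TPM, stood at 16.7, 13.4, 12.9 and 12.0 normalized CPM, and *Il13*, *Clcf1*, *Il9* and *Il21* were at 0 in all libraries. *Il15* transcripts were thus detected beside those of *Il15ra*, *Il2rb* and *Il2rg* in every library.

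Among the other receptors, the chains of the beta common family stood out. All 3 tested genes of that list were higher in old at an unadjusted p, with a median log2 difference of 1.41. Without old replicate 2 the differences were 0.76 for *Csf2ra*, 0.55 for *Csf2rb* and 0.48 for *Csf2rb2*, and without old replicate 1 that of *Csf2rb2* was 2.1. *Csf2rb*, the shared chain for GM-CSF, IL-3 and IL-5, stood at 71.9, 77.5, 111 and 255 (log2 difference 1.29), *Csf2rb2* at 23.3, 31.4, 38.7 and 114 (log2 difference 1.48) and *Csf2ra* at 13.3, 15.1, 24.4 and 51.4 (log2 difference 1.41). All 3 beta common genes were highest in old replicate 2, the library with the highest sum of dendritic cell markers. Their part in this result was not tested.

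The other receptor lists held few such genes. Of 9 interferon, IL-10 and IL-17 receptor genes, 2 were higher in old at an unadjusted p (median 0.11). They were *Ifngr1* at 114, 98.2, 181 and 236 (log2 difference 0.98) and *Il10ra* at 47.3, 58.5, 70.8 and 131 (log2 difference 0.93). *Ifnar2*, the most abundant of that list, stood at 174, 210.0, 176 and 222. Of 8 receptor tyrosine kinases besides *Kit* and *Flt3*, only *Met*, the receptor for hepatocyte growth factor, was higher at an unadjusted p (median -0.30). It stood at 8.84, 10.9, 20.95 and 90.0 (log2 difference 2.49, adjusted p = 0.0128 in DESeq2). With 0.651 and 0.485 FPKM in young and 1.24 and 3.36 in old libraries, *Met* passed the filter only through the old libraries, where it is high. Omitting old replicate 2 brought its log2 difference to 1.07, and omitting old replicate 1 to 3.24. *Pdgfrb* was the most abundant of them at 301, 346, 302 and 184. None passed at an unadjusted p among 2 other receptors of the common gamma chain group (median 0.28), 6 partners of GP130 and receptors of the IL-12 family (median 0.08) or 6 receptors of the IL-1 and IL-18 family (median -0.22). In those lists the most abundant were *Il21r* at 20.8, 15.7, 21.1 and 17.6, *Il12rb2* at 73.3, 116, 82.9 and 118, and *Il1r1* at 171, 228, 180.5 and 128.

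Downstream of the receptors, 2 of 11 Janus kinase and STAT genes were higher in old at an unadjusted p (median 0.30). *Stat2*, of the interferon pathway, stood at 45.5, 68.6, 85.4 and 233 (log2 difference 1.48). Without old replicate 2 its difference was 0.56, and without old replicate 1 it was 2.08. *Tyk2*, a kinase bound to GP130-type and interferon receptors, stood at 44.0, 53.5, 67.3 and 118 (log2 difference 0.93). *Jak1*, the kinase bound to *Il2rb*, *Il7r*, *Il4ra* and *Il6st* products, was the most abundant at 600.1, 696, 593 and 587. Of 18 adaptors and kinases next to the receptors, *Gab1*, an adaptor of receptor tyrosine kinases, was lower in old at 35.3, 45.8, 22.8 and 17.2 (log2 difference -1.01), and the median was 0.07. *Lyn*, the most abundant of that list, stood at 133, 206, 182 and 376. None of 19 inhibitors of receptor signalling passed (median 0.02), the most abundant being *Ptprc* (CD45) at 661, 784, 515 and 953.

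Of 14 genes known to respond to IL-7, IL-2 or STAT5, 2 were higher in old at an unadjusted p (median 0.38). *Gzmb*, the cytotoxic protease granzyme B, stood at 3.63 and 4.00 in young and 37.5 and 20.7 in old libraries (log2 difference 2.94, adjusted p = 4.27e-06 in DESeq2). Granzyme B is also a product of NK cells, and *Gzmb* is itself among the 9 NK cell and ILC1 markers summed above. The other 8 summed to 12.0, 23.1, 53.6 and 145, and their part in the level of *Gzmb* was not tested. *Mcl1*, a survival gene downstream of IL-7 and IL-15, stood at 442, 344, 629 and 660.1 (log2 difference 0.71), and *Myc*, the most abundant of the list, at 503, 527, 424 and 402.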

How the data were processed

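RNA of sorted ETP was amplified with the NuGEN Ovation system and sequenced as read pairs. The submitters' processing notes name STAR 2.3.0, Cufflinks 2.1.1, Cuffdiff, HTSeq 0.5.4p3, DESeq 1.12.1 and the build GRCm38 (mm10). Strand, multiply aligned reads and filters are not given in the sources used here. The authors deposited, per gene and library, estimated counts of fragments (95.7% to 96.1% whole within 1e-06), a scaled signal (those fragments times a library factor) and FPKM. Estimated counts were rounded, normalized by TMM and compared between ages in R 4.3.3 by the quasi-likelihood test of edgeR 4.0.16, with no other covariate, Benjamini-Hochberg adjustment and a threshold of 0.05, over the 10080 genes that passed the filter. The alternatives were DESeq2 1.42.0, limma 3.58.1 on log2(FPKM + 1), log2(FPKM + 0.1) and log2(TPM + 1), other scalings and filters, a block for the replicate number, and omission of each library in turn. Ratios of 2 genes used exact permutation tests. The fits were tested on simulated data. Within an age the libraries differed well beyond sampling noise (chi-square per gene 57.5 in young and 68.4 in old), so none was treated as a copy.

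The receptor genes and all lists were chosen with earlier results of these data known. Named were the 10 receptor genes, up to 3 genes per related list with the smallest unadjusted p under 0.05 and the 1 with the highest mean TPM, the 2 markers per cell type list with the highest old level (given for the lists that moved with *Il2rb*), 3 genes of most similar pattern for 4 receptors, and *Cd44*. *Ncr1*, *Eomes*, *Tbx21*, *Klrb1c*, *Klrd1*, *Prf1*, *Sirpa*, *Cd209a*, *Cd3e*, *Rag1*, *Rag2*, *Ptcra*, *Cd4*, *Cd8a*, *Cd79a*, *Ms4a1*, *Ebf1*, *Foxn1* and the ligands at 0 were named after their values were seen. Of 75 marker symbols, 3 had no row in the table. Limits for counts of 0 cover counting error only, and amplified reads are not independent molecules. Gene positions and coding sequences are from GENCODE M21 on GRCm38.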

Additional observations from a re-analysis of the deposited data

How the results depend on the processing

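Calls depended on the analysis, while the direction of *Il2rb* did not. Against 0 calls in edgeR, 210 genes were called higher and 15 lower in old with DESeq2 and 474 and 34 without the filter, and leaving out a library gave 0 to 218 higher and 0 to 3 lower, the highest without old replicate 1. Of the 10 receptor genes, 1 was called higher (*Il2rb*) with DESeq2 and without the filter, and 0 to 1 with a library left out. Of the related lists, 2 were called higher with DESeq2, 10 higher and 1 lower without the filter, and 0 to 4 higher with a library left out. With the replicate number as a block, 578 genes were called higher and 199 lower, among them 1 of the 10 receptor genes (*Il2rb*, adjusted p = 1.13e-05) and 17 higher and 2 lower of the related lists. Same-numbered libraries deviated together (r = 0.732 over 10080 genes), but no label says that a number marks a shared animal, day or batch.

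Scaling moved the median log2 difference of all genes from -0.03 to -0.33 with log2(FPKM + 0.1), -0.27 with log2(FPKM + 1), -0.12 with TPM and -0.07 with upper-quartile scaling, and small differences changed sign with it. With log2(FPKM + 0.1) and log2(FPKM + 1), in that order, the log2 difference was -0.25 and -0.24 for *Kit*, -0.12 and -0.12 for *Flt3*, -0.23 and -0.18 for *Il4ra*, -0.0329 and -0.0269 for *Il18r1*, -0.19 and -0.15 for *Il21r*, -0.19 and -0.17 for *Il12rb2*, -0.16 and -0.16 for *Ifnar2*, -0.32 and -0.32 for *Ptprc* and -0.11 and -0.10 for *Cd44*. With TPM it was -0.0348 for *Kit*, -0.0252 for *Il4ra* and -0.11 for *Ptprc*, and with upper-quartile scaling it was -0.0156 for *Kit* and -0.0293 for *Ptprc*. With the replicate block it was -0.0402 for *Ptprc*.

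Omitting a library left an age with 1 library, whose spread was taken from the remaining age. Over these omissions the log2 difference ran from -0.22 to 0.30 for *Kit*, -0.15 to 0.49 for *Flt3*, -1.65 to 0.70 for *Il7r*, -0.54 to 0.0626 for *Il2ra*, -0.50 to 0.58 for *Il4ra*, -0.66 to 1.19 for *Il18r1*, -0.10 to 0.31 for *Il21r*, -0.21 to 0.45 for *Il12rb2*, -0.15 to 0.26 for *Ifnar2* and -0.51 to 0.44 for *Ptprc*. The log2 ratio of *Il7r* to *Il2rg* ran from -1.29 to 0.89 and that of *Flt3* to *Kit* from -0.23 to 0.49. The cause of these changes was not tested. With 2 libraries per age and the shallower library being replicate 2 in both, depth and replicate number cannot be told apart.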
